A study of Mus musculus with 4 samples.

Results

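The cells described here are cells of the mouse mammary gland with RNA for CD3, a mark of T cells, and for cytotoxic or epithelium-retention genes. No Cd8b1, the gene for the beta chain of the CD8 coreceptor, was detected in them. They were chosen by counts of unique molecular identifiers (UMIs, 1 per captured RNA molecule). A member had at least 1 UMI of Cd3e, Cd3d or Cd3g, a summed count of at least 2 for Itgae, Gzmb and Gzmc, and no UMI of Cd8b1, Cd4, Cd163l1, Foxp3, Cd79a or Ms4a1. Of 42781 cells passing the filters, 3952 (9.24%) were members. After cells without exactly 1 hash tag and predicted doublets were left out, 2731 members remained among 29900 cells. Because measured values chose the members, the levels of those genes are given as descriptions, and members against other cells were not tested.

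CD45+ cells, which are cells of blood origin, were profiled by droplet RNA sequencing in 2 pooled libraries, DR_MG_2021 (library A) and DR_MG_2022 (library B). Hash tags, antibodies that carry a short DNA barcode, marked the sample each cell came from. Library A holds Nulliparous, Gestation and Lactation samples. Library B holds Gestation, Lactation, Involution, Regression, Balb/c and GF (germ-free) samples, each on 1 tag. A further tag, HT2, was present in both libraries. The deposited sheets name it Germ-free, but the title of library A lists no germ-free sample and does list Involution, for which its sheet has no tag, and library B has a separate GF tag. Whether HT2 of library A is the Involution sample is not known, so the tag is called HT2 and enters no stage comparison. The Nulliparous tag had 1 count in library B and gives no sample there. The sources used here do not give how many animals each tag stands for, the strain of samples other than Balb/c, or the reproductive stage of Balb/c and GF mice. Any p-value therefore measures the spread between tag samples only.

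Intraepithelial lymphocytes are T cells that live between the epithelial cells of barrier tissues. The integrin chain encoded by Itgae pairs with the beta-7 chain and binds E-cadherin on epithelium, and granzymes are proteases that kill target cells. Many such T cells in the gut carry CD8 as a pair of alpha chains without the beta chain, use either an alpha-beta or a gamma-delta receptor, and share receptors and signalling adaptors with natural killer (NK) cells. Where the cells lay in the gland was not measured, so the comparison with intraepithelial cells rests on RNA alone.

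A cell's sample rests on reading its tag, so the tag oligos of the stage pair present in both libraries are shown, 5′ to 3′, with capitals at the bases where they differ.
Gestation (HT5): CTtTGtCTTTGTgAG
Lactation (HT6): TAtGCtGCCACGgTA
They differ at 12 of 15 bases, and the 8 tags in use differ from one another at 9 or more. A single tag was called for 73.98% of cells in library A and 70.74% in library B. Among tags that gave a sample, the Lactation tag had the fewest counts in cells in each library. It had 205967 in library A, against 312338 to 1199714 for the others. In library B it had 16368, against 83785 to 343172. Lactation also had the fewest analysed cells, 2422 in library A and 783 in library B. Whether its calls were less certain than those of other tags was not tested.

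Members made up 8.45% of analysed Nulliparous cells (476 of 5633), 9.19% of Gestation cells (405 of 4409) and 26.8% of Lactation cells (648 of 2422) in library A. In library B they made up 7.39% of Gestation cells (246 of 3328) and 14.2% of Lactation cells (111 of 783). The Lactation share was above the Gestation share in both libraries, 2.91-fold in library A and 1.92-fold in library B. The exact 95% intervals of the shares, which cover counting error only, did not overlap: 6.53% to 8.33% against 11.8% to 16.8% in library B. The mean log2 ratio over the years was 1.24, and an exact two-sided permutation within years gave p = 0.5, the smallest that 2 years allow. Fewer cells of other types in a sample and more members cannot be told apart from shares. Among cells with a CD3 UMI, members were 26.0% in Gestation and 58.5% in Lactation in library A, and 11.5% and 20.7% in library B.

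The remaining samples of library B were spread widely. Members were 3.11% of Involution cells (69 of 2218) and 1.59% of Regression cells (38 of 2391), the lowest of the named samples. They were 18.5% of Balb/c cells (365 of 1972) and 12.9% of GF cells (275 of 2123). HT2 cells held 2.19% members in library A (62 cells) and 2.01% in library B (36 cells). Each of these names has 1 tag sample, so no test was made between them.

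**Figure D1:**
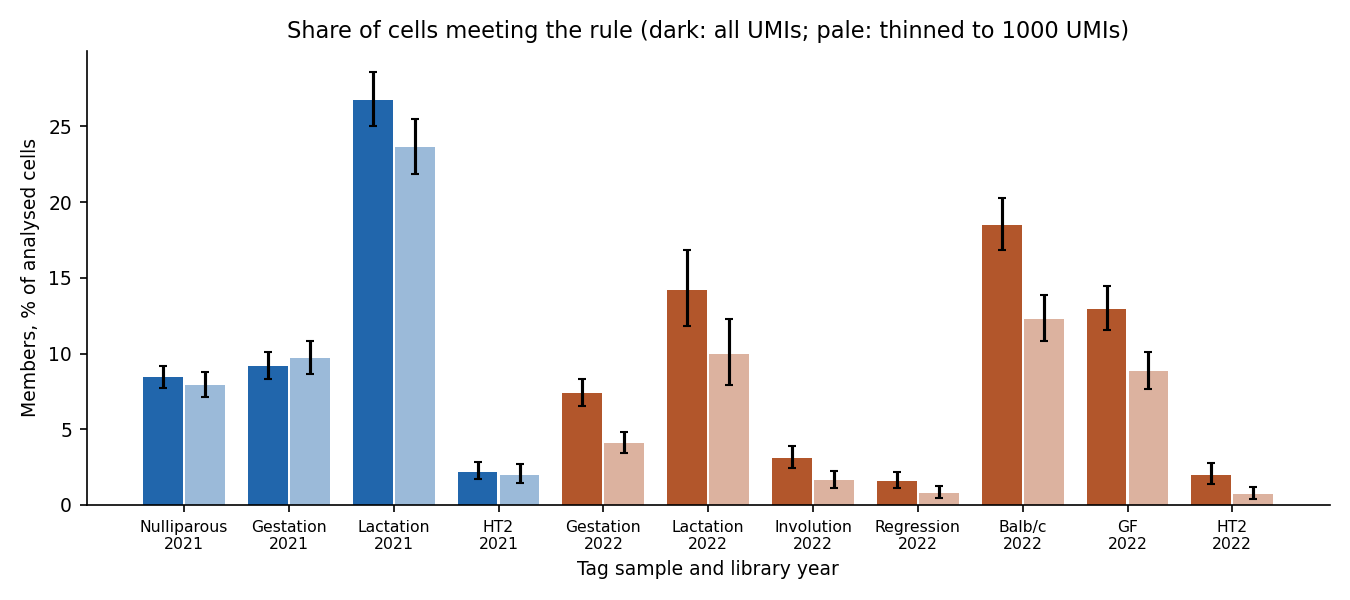
Share of analysed cells that met the rule, in percent, for each tag sample of library A (blue) and library B (brown), labelled with the year in the library's name; dark bars use all UMIs, pale bars cells thinned to 1000 UMIs, and error bars are exact 95% binomial intervals. Lactation reached 26.8% in library A and 14.2% in library B, above Gestation in both libraries, and Regression was lowest of the named samples at 1.59%.

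Depth affects a rule that needs both detected and undetected genes. The median member had 1994 UMIs in library A and 3454.5 in library B, against 1357 and 2810 over all analysed cells. In library A the Gestation members were the shallowest, with a median of 1412 UMIs, and the Lactation members had 2173. With every cell thinned to 1000 UMIs, the share was 9.69% in Gestation and 23.7% in Lactation in library A, and 4.08% and 9.97% in library B. The log2 ratio in that draw happened to be 1.29 in both years. Over 10 other random draws it ran from 1.26 to 1.34 in library A and from 0.85 to 1.30 in library B, so the years are not shown to be alike.

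The rule genes were seen in different combinations. Itgae and Gzmb were both detected in 64.4% of members in library A and 68.1% in library B. Gzmb without Itgae was seen in 30.1% and 18.3%, and Itgae without Gzmb in 5.47% and 13.3%. At the threshold, cells with a summed count of 2 had 9.83 Cd7 UMIs per 10000 in library A and 9.42 in library B. Cells just outside, with a sum of 1, had 6.61 and 5.15, and cells with 3 or more had 17.4 and 23.7. Il7r, the interleukin-7 receptor chain, ran the other way in both libraries, in library B with 4.30 per 10000 at a sum of 1, 3.66 at 2 and 0.642 at 3 or more. The cells at the threshold thus stood between the groups on either side.

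The absence of Cd8b1 UMIs is not proof that a cell lacked the gene's RNA. Among cells with Cd8a and a naive T cell gene but none of Itgae, Gzmb and Gzmc, Cd8b1 was seen in 63.3% in library A and 81.9% in library B. Among cells with Cd8a that otherwise met the rule it was seen in 17.8% and 50.5%. After thinning to 1000 UMIs these shares were 49.6% and 53.3% in the first group and 8.47% and 21.3% in the second. The 2 genes are neighbours on chromosome 6 of the mouse genome (GRCm38), Cd8a at 71373427 to 71379171 and Cd8b1 at 71322788 to 71337492.

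Cd8a, which encodes the CD8 alpha chain, was detected in 24.6% of members in library A and 23.9% in library B, against 0.367% and 0.938% of B cells, which should lack it. Trdc, the constant region of the delta receptor chain, was detected in 16.3% and 28.9% of members and 0.147% and 1.11% of B cells. The B cells were shallower, with a median of 930.0 UMIs in library A and 2037.5 in library B. After thinning to 1000 UMIs, Cd8a was seen in 16.3% and 12.01% of members and 0.370% and 0.353% of B cells, and Trdc in 10.2% and 16.2% against 0.185% and 0.530%. In thinned cells with the NK receptor gene Ncr1 and no CD3 UMI, Trdc was seen in 4.082% in library A and 6.498% in library B. Cd8a was seen in 0.2783% and 0.1688% of those cells. Detection of Trdc was thus not limited to cells with a CD3 UMI, and it is not proof of a gamma-delta receptor.

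By sample, Cd8a was seen in 26.9% of Nulliparous, 18.5% of Gestation and 27.5% of Lactation members in library A. In library B it was seen in 24.0% of Gestation, 30.6% of Lactation, 18.8% of Involution and 21.1% of Regression members, and in 39.6% of GF and 12.9% of Balb/c members. Among these named samples GF was highest and Balb/c lowest, with exact 95% intervals of 33.8% to 45.7% and 9.62% to 16.8%, and the order held after thinning for that pair (20.8% and 5.56%). HT2 members had Cd8a in 17.7% (11 of 62) in library A and 5.56% (2 of 36) in library B. Trdc was seen in 16.2% of Nulliparous, 11.9% of Gestation and 19.4% of Lactation members in library A. In library B it was seen in 23.6% of Gestation, 19.8% of Lactation, 20.3% of Involution and 21.1% of Regression members, and in 32.4% of GF and 34.8% of Balb/c members. After thinning, Balb/c (21.4%) and GF (19.0%) remained above the 7.89% to 11.8% of the other named samples of library B.

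Cd8a and Trdc were rarely seen in the same member of the named samples outside GF. They were seen together in 0.840% to 2.63% of members in the other 8 named samples, below the product of the separate shares in each. In GF they were seen together in 41 of 275 members (14.9%, interval 10.9% to 19.7%), where the product is 12.8%. GF is 1 tag sample, so this has no replicate check. HT2 members had both genes in 4 of 62 in library A (6.45%, interval 1.79% to 15.7%, product 2.58%). In HT2 of library B it was 1 of 36 (2.78%, interval 0.0703% to 14.5%, product 1.85%). The intervals of GF and of HT2 in each library hold their products. So do those of Gestation in library A and of Lactation, Involution and Regression in library B.

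**Figure D2:**
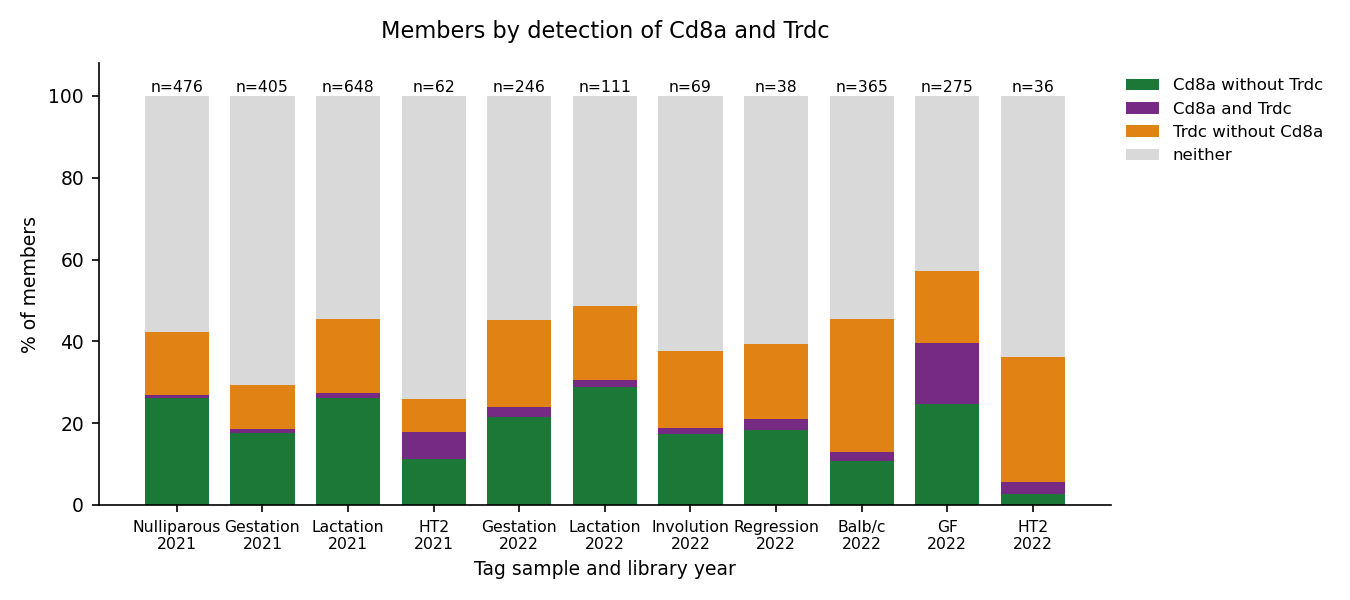
Members of each tag sample divided by detection of Cd8a and Trdc, as percent of members, with the number of members above each bar. The group with both genes is largest in GF (14.9%), followed by HT2 of library A (6.45%), and Trdc without Cd8a is largest in Balb/c (32.6%).

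The split by detected receptor genes went with other receptor transcripts. Trac, the constant region of the alpha chain, had 3.56 UMIs per 10000 in members with Cd8a and no Trdc in library A and 4.78 in library B. In members with Trdc and no Cd8a it had 0.374 and 0.485. Members with neither gene had 2.18 and 2.79. Ikzf2, which encodes the transcription factor Helios, was at 3.99 and 4.03 in members with Cd8a alone and 1.72 and 1.94 in those with Trdc alone. Ncr1, an activating receptor of NK cells, ran the other way, at 0.164 and 0.502 against 1.495 and 2.61. Over the 4 subsets in library A, Gzma ran from 151.6 to 182.1 per 10000, Fcer1g from 22.6 to 26.8 and Cd7 from 15.4 to 24.3, with Cd7 highest in the 21 members with both genes. Reads of Trbc1 and Trbc2, of the Trgc genes and of the Klra genes come from near-identical copies, and their counts are uncertain.

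Effector and innate signalling genes were compared with CD8 alpha-beta T cells (CD3 and Cd8b1 detected) and with NK and type 1 innate lymphoid cells (CD3 not detected, Ncr1 detected). Levels are summed UMIs per 10000 UMIs. They compare classes within a gene. Each class was pooled over tag samples, and the mix of samples differed between classes. In library A, Lactation gave 648 of 1591 members, 112 of 1185 CD8 alpha-beta T cells and 320 of 1335 cells of the NK and innate class. The part of this mix in the class levels was not tested. Ccl5, a chemokine of activated T and NK cells, was at 140.0 in members, 50.1 in CD8 alpha-beta T cells, 94.3 in the NK and innate class and 2.24 in B cells in library A. Gzma, a granzyme, was at 168 against 14.3, 109 and 2.64. In library B Gzma was at 76.5 against 5.21, 48.0 and 0.602. Fcer1g and Tyrobp encode adaptor proteins that pass signals from innate receptors. Fcer1g was at 24.6, 2.54 and 23.2 in the same order of classes in library A, and Tyrobp at 15.2, 2.09 and 19.4. Cd7, a surface protein of T and NK cells and 1 of the 5 marker genes, was at 16.3, 1.89 and 7.36 in library A and 21.8, 2.77 and 10.5 in library B.

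Other genes stood higher in members than in either class. Itga1, a collagen-binding integrin chain of resident lymphocytes, was at 5.20 in library A against 1.19 and 2.33. Cd160, an inhibitory and activating receptor of intraepithelial T cells, was at 2.90 against 0.814 and 1.65. Ikzf2 was at 2.68 against 0.379 and 0.359. Trgv2, a gamma-chain variable segment, was at 2.27 against 0.256 and 0.0127. Genes of NK cells did not share 1 pattern. Ncr1 was at 0.996 against 8.41 in the NK and innate class, which the presence of Ncr1 defined, and Prf1, which encodes perforin, was at 0.739 against 6.06. Klrb1c, after thinning to 1000 UMIs, was seen in 31.2% of members and 48.9% of that class in library A. Klra7, an NK receptor gene, was seen more often in members, in 28.2% against 12.4% in library A and 23.8% against 13.8% in library B, and Klra1 likewise, in 23.6% against 5.47% and 12.4% against 5.32%. Genes of naive and recirculating T cells were low. S1pr1, the receptor for exit from tissue, was at 0.145 in members and 2.23 in CD8 alpha-beta T cells, and Tcf7 at 0.159 and 3.15.

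**Figure D3:**
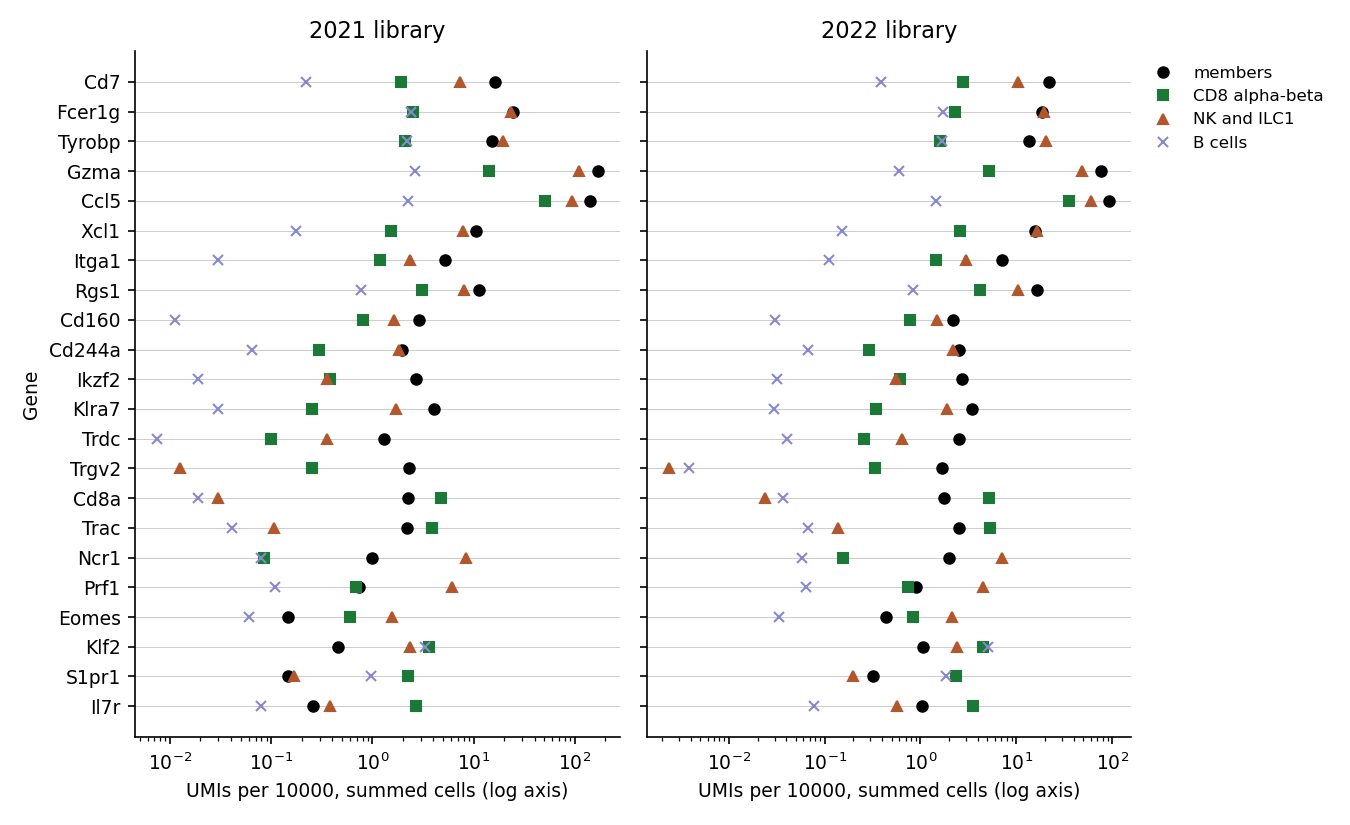
Levels of 22 genes in summed cells of 4 classes, as UMIs per 10000 on a log axis, in library A (left) and library B (right); classes at 0 have no point. In library A, members lie near NK and ILC1 cells for Fcer1g and Tyrobp. Members lie far below CD8 alpha-beta cells for Il7r, Klf2 and S1pr1.

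Gzmb (56258836 to 56262334) and Gzmc (56231397 to 56241647) lie on chromosome 14 of GRCm38 with Gzmd, Gzme, Gzmf and Gzmg. Gzmc, a gene of the rule, was at 2.30 in the members of library A and 1.13 in library B. Gzmd, Gzme and Gzmg were listed at 0 in the members of both libraries, which allows up to 0.00837 UMIs per 10000 in library A and 0.00676 in library B. Near-identical granzyme copies can lose reads in counting. Il17a and Il22, cytokines of another T cell subset, were at 0 in library A, and Il17a was at 0.0293 in library B. The rule left out cells with Cd163l1, a marker of interleukin-17 gamma-delta cells, so low values are partly built in.

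Effector levels varied between samples. Gzma was at 95.2 in Nulliparous, 117 in Gestation and 248 in Lactation in library A. In library B it was at 54.2 in Gestation, 83.1 in Lactation, 70.2 in Involution and 28.3 in Regression, with GF at 126 and Balb/c at 66.6. Lactation was above Gestation in both libraries, yet the Gestation level of library A was above the Lactation level of library B. Ccl5 was at 85.4, 157 and 179 in library A, and 93.3, 117, 66.3, 48.4, 117 and 84.5 in the same order as for Gzma in library B. Regression was lowest of the named samples in library B for Gzma, Ccl5 and Cd7 (9.53, against 15.1 to 27.4 in the other named samples). Regression had 38 members, and 61.7% of its macrophage-marker UMIs lay in 1 cell. The part of that cell in these levels was not tested.

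Genes of naive and recirculating cells were highest in Regression among the named samples of library B. Il7r was at 3.51 in Regression and 2.81 in Involution, against 0.216 in Lactation, 0.310 in Balb/c, 1.08 in Gestation and 1.25 in GF. S1pr1 was at 1.39 in Regression, and 0.0865 to 0.621 elsewhere among the named samples of library B. Tcf7 was at 2.51 against 0.259 to 0.718. Il18r1, a chain of the interleukin-18 receptor, was at 3.24 in Regression and 1.73 in Involution and 0.303 to 0.538 in the other 4 named samples. Markers of dendritic cells (Flt3, Xcr1, H2-Ab1 and Itgax) were also highest in these 2 of the named samples, at 12.65 in Involution and 11.84 in Regression against 3.45 to 5.10 in the other 4, with 34.0% and 61.5% in 1 cell. Macrophage markers were at 7.57 and 10.19 against 1.77 to 4.41, with 68.0% and 61.7% in 1 cell. The part of these cells in the Il7r, S1pr1, Tcf7 and Il18r1 levels was not tested.

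NK receptor genes separated Balb/c from the rest. Klrb1c, which encodes NK1.1, was at 0.375 in Balb/c and 2.75 to 4.63 in the other named samples of library B. Klra1 was at 0.750 against 1.59 to 3.07, and Klra7 at 1.30 against 2.63 to 4.97. Klra5 was at 3.98 against 0 to 1.47, and Ncr1 at 3.52 against 0.908 to 1.41. Reads of all samples were counted on a reference of C57BL/6J, a strain whose NK receptor alleles differ from those of Balb/c. Strain differences in expression, read mapping, the unknown reproductive stage and the make-up of the members cannot be told apart here. Members with Trdc and no Cd8a were 32.6% in Balb/c, against 17.45% to 21.1% in the other named samples of library B. The part of this in the NK receptor levels was not tested. By the rule for names with 1 sample, Coro2a was also low in Balb/c (0.0570, against 1.37 to 1.95), and Cd200r2 was high in GF (0.964, against 0 to 0.179).

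**Figure D4:**
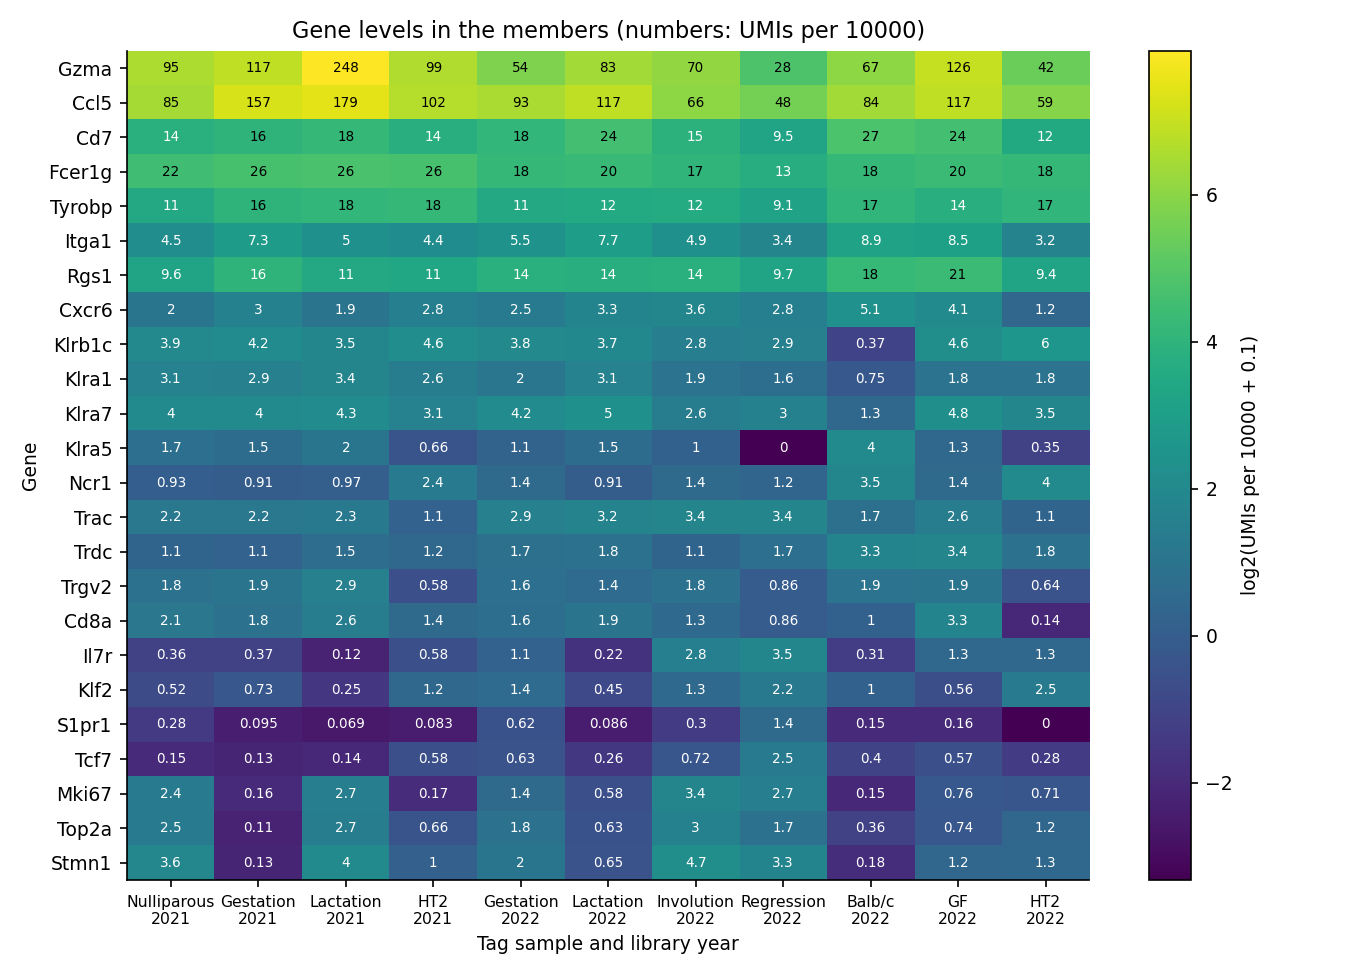
Levels of 24 genes in the members of each tag sample, as UMIs per 10000 (numbers in the cells), coloured by log2 of the level plus 0.1. Klrb1c is low in Balb/c (0.375), Il7r is high in Involution and Regression, and Mki67 is below 0.16 in Gestation of library A and in Balb/c.

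Cell-cycle genes gave opposite stage differences in the libraries. Mki67, a protein of dividing cells, was at 2.37 in Nulliparous, 0.159 in Gestation and 2.71 in Lactation in library A. In library B it was at 1.40 in Gestation, 0.584 in Lactation, 3.41 in Involution and 2.71 in Regression, with GF at 0.758 and Balb/c at 0.147. Mki67 or Top2a was seen in 3.21% of Gestation members and 19.4% of Lactation members in library A, and in 23.2% and 14.4% in library B. After thinning to 1000 UMIs the shares were 2.69% and 14.5% in library A, and 9.39% and 8.18% in library B. The thinned intervals in library B overlapped (6.04% to 13.8% and 3.81% to 15.0%). In NK and type 1 innate lymphoid cells, on all UMIs, the shares were 5.91% and 27.2% in library A and 13.5% and 9.43% in library B. Thinned, that class had 5.75% and 7.84% in library B. In CD8 alpha-beta T cells, on all UMIs, they were 11.8% and 18.75%, and 16.4% and 17.95%. Thinned, CD8 alpha-beta T cells had 12.3% and 14.95% in library A and 8.97% and 7.69% in library B, with overlapping intervals in each library. None of the 10 listed cell-cycle genes tested had the same direction in both years.

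Lactation was compared with Gestation across genes on counts summed over the members of the 4 tag samples, with the year as a block. In edgeR's quasi-likelihood test, 1 of 7765 genes (0.0129%) passed a Benjamini-Hochberg adjusted p of 0.05, and 188 had an unadjusted p under 0.05. DESeq2 called 0 genes, with 18 at an unadjusted p under 0.05. The gene called was Fkbp11, a chaperone of secretory cells (log2 5.77, adjusted p = 0.004287 in edgeR). All of its UMIs in Lactation of library B lay in 1 cell of 68108 UMIs, of which 26988 came from milk protein genes, and without the cells with more than 20 milk UMIs edgeR called no gene, with 157 at an unadjusted p under 0.05. This comparison has 1 residual degree of freedom.

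Effector genes did not pass the test. Gzma had a log2 difference of 0.91 (SE 0.44, edgeR adjusted p = 0.9997), and none of the 9 cytotoxic genes tested had an unadjusted p under 0.05. Of 14 retention genes tested, 5 were higher and 6 lower in both years, where 18.1% and 27.3% of all genes were, and none had an unadjusted p under 0.05. Genes of egress and the naive state had lower values in Lactation, and none passed adjustment by the filter and tag calls used. Of 4 tested, 3 had an unadjusted p under 0.05 on the lower side, where 1.34% of all genes did, and the list's median log2 difference was -1.23 against 0.01 over all genes. The gene lists were chosen with earlier results of these data known, so their comparisons with all genes are descriptions. Il7r was at 0.366 in Gestation and 0.118 in Lactation in library A, and 1.08 and 0.216 in library B (log2 -1.89, SE 0.37, edgeR adjusted p = 0.2376). With a rule sum of at least 3 the Il7r difference was -1.17, and without Gestation of library B it was -1.26. Klf2, a transcription factor that drives S1pr1, had a log2 difference of -1.53 (SE 0.31, edgeR adjusted p = 0.2826). Satb1 had a log2 difference of -0.93 (SE 0.32, edgeR adjusted p = 0.9997). Tcf7, the remaining gene tested, was at 0.127 in Gestation and 0.143 in Lactation in library A and 0.630 and 0.260 in library B. With the margin rule for tags, which asks for 3 times the next tag, Il7r (edgeR adjusted p = 0.003717) and Klf2 (0.01639) passed, and with no filter on low counts they also passed (0.0006129 and 0.003153). With every other alternative, the edgeR adjusted p of both was 0.163 or higher. Naive T cell markers, a list that shares 5 genes with this one, had a summed level of 0.430 in Gestation and 0.380 in Lactation in library A and 2.08 and 0.605 in library B; their part in the result was not tested.

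The stress and immediate early list held 3 of 9 tested genes with an unadjusted p under 0.05, all lower in Lactation. Over all genes, 1.34% had such a p on the lower side. The list's median log2 difference was -0.44, against 0.01 over all genes. Dusp1, a phosphatase induced by stress, was at 1.46 and 0.704 in library A and 2.72 and 0.843 in library B (log2 -1.29, edgeR adjusted p = 0.3575); it passed with the margin rule (edgeR adjusted p = 0.02744) and with no filter (0.02198). Of the 9, 5 were lower in both years, against 27.3% of all genes. Macrophage markers had lower values in Lactation too, 5 of 5 in both years, where 27.3% of all genes did, with a median of -0.68. Of these, 2 had an unadjusted p under 0.05, where 1.34% of all genes did on the lower side. Their summed level was 3.01 in Gestation and 1.44 in Lactation in library A, and 2.53 and 1.77 in library B. In library B, 43.9% of these UMIs in Gestation and 8.54% in Lactation lay in 1 cell. In library A these parts were 17.5% and 23.8%. Whether the difference in library B holds without that Gestation cell was not tested. H2-Ab1, which encodes a class II antigen-presenting chain, had a log2 difference of -0.84 (edgeR adjusted p = 0.9997). Of the H2-Ab1 UMIs in its largest sum, 43.6% lay in 1 cell. The part of the macrophage markers and H2-Ab1 in the stress, immediate early and naive-state differences was not tested. Cd28, a costimulatory receptor, had a log2 difference of -1.73 (edgeR adjusted p = 0.5567), which was -0.80 without Gestation of library B; with no filter it passed (edgeR adjusted p = 0.02264). Among genes higher in Lactation by the smallest p were Dbi (1.17), Plin2 (1.51) and Mpc2 (0.94), which act in lipid binding, lipid droplets and pyruvate import, and none passed adjustment. Without the cells with more than 20 milk UMIs these differences were 0.41, 0.205 and 0.46, and with the margin rule for tags 0.25, 0.33 and 0.38. Without Lactation of library B they were 0.59, 0.90 and 0.58. With no filter Plin2 passed (edgeR adjusted p = 0.01766), as it did without Lactation of library A (0.02241). Asb2 (1.27, edgeR adjusted p = 0.8457) was also among the genes higher in Lactation by the smallest p. The Asb2 difference was 1.31 without the milk cells and 1.31 with the margin rule. It ran from 0.13 to 2.55 with 1 tag sample left out. Iglc1, an immunoglobulin constant region, was among these genes too, but 4 cells held 96.2% of its 9682 UMIs in Lactation of library A.

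**Figure D5:**
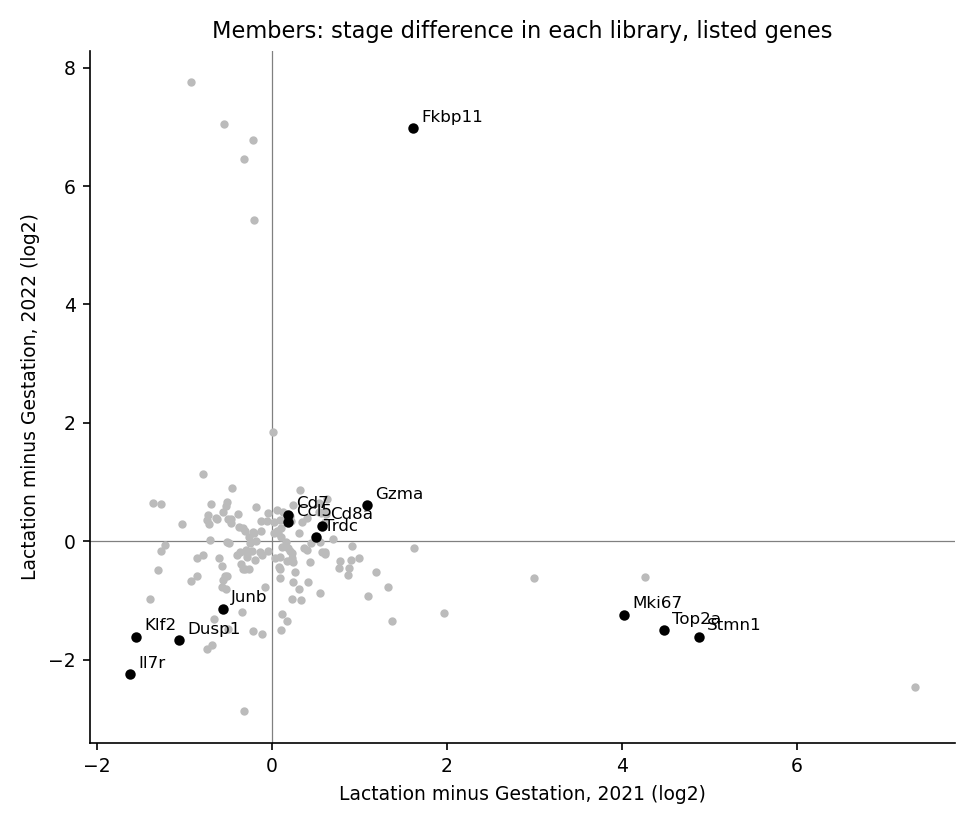
Lactation minus Gestation difference (log2) of each listed gene in the members, library A on the horizontal axis and library B on the vertical axis; black points are named. Il7r, Klf2 and Dusp1 are below 0 in both years, Mki67 and Top2a lie on opposite sides, and most points far up the vertical axis are milk genes of 1 cell.

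Markers of NK cells were at 5.79 to 23.6 per 10000 in the members of the 11 tag samples, with 7 or 8 of 8 genes seen, and those of type 1 innate lymphoid cells at 8.30 to 17.5, with 6 of 6 seen. In HT2 of library B, NK markers (23.6) stood above T cell markers (22.8), a list that includes the CD3 genes of the rule. In every other tag sample T cell markers were above NK markers. A single CD3 UMI is not proof that a member was a T cell. Macrophage markers were at 1.44 to 10.4 and dendritic cell markers at 2.45 to 13.8, the highest in HT2 of library A and HT2 of library B. Markers of B cells outside the rule genes were at 2.27 to 3.19, of naive T cells at 0.380 to 5.89, of type 2 innate lymphoid cells at 0.374 to 2.32 and of neutrophils at 0.0829 to 0.573. The summed mammary epithelium markers were at 5.64 to 15.4 per 10000 in 10 tag samples and at 598 in Lactation of library B, where 1 cell held 97.7%. Leaving that cell out moved Gzma there from 83.1 to 91.9 and Cd7 from 24.2 to 28.1. Red cell genes were at 26.1 in Involution and 18.4 in GF, with 98.6% and 97.4% in 1 cell. Markers of interleukin-17 gamma-delta cells were at 0 to 0.927, in a list that includes Cd163l1, which the rule sets to 0. Cell barcodes shared by the libraries numbered 139.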

How the data were processed

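The deposited files hold raw UMI counts per gene and tag counts per barcode for 2 libraries, prepared with 10x Genomics 3' reagents (v3.1) per the labels. Per the submitters' processing notes the authors used mm10 and Cell Ranger 6.1.0, while the gene matrix of library A names Cell Ranger 4, per the file headers. The sheets that pair tags with names, and the tag oligos, were deposited by the authors. Libraries were matched by symbol: 55253 genes, with 234 entries left out.

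Cells had at least 500 UMIs, 300 genes and at most 10% mitochondrial UMIs, giving 21604 and 21177 cells. Tags were called with HTODemux (Seurat 5.3.0, quantile 0.99) and doublets with Scrublet (scanpy 1.11.5, rate 0.08). No clustering was used. Counts summed per tag sample were tested with edgeR 4.0.16 (TMM, filterByExpr, year as block) and DESeq2 1.42.0. On simulated counts for Lactation minus Gestation, with 7459 genes tested, edgeR recovered 16.2% of genes changed by log2 1 and 81.8% by log2 2, with 7 false calls. Intervals are exact (Clopper-Pearson, 95%) and cover counting error only.

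The members, the gene lists and the rule for named genes were chosen with earlier results of these data known. Beyond the lists, genes were named by smallest p in each direction, or by ratio to the other samples of a library. Gene positions are from RefSeq (GRCm38.p6).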

Additional observations from a re-analysis of the deposited data

Results flagged for a closer look

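Members were also found among cells that enter no comparison because no tag was called. There were 204 of 2700 such cells in library A (7.56%, exact 95% interval 6.59% to 8.62%) and 165 of 2133 in library B (7.74%, 6.64% to 8.95%). Among cells with more than 1 tag called, 429 of 2921 (14.7%) and 320 of 4063 (7.88%) were members. Their samples are not known.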

How the results depend on the processing

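The higher share of members in Lactation kept its direction under every alternative run, with mean log2 ratios from 0.94 to 1.43, and 0.94 and 1.54 with a year left out. With the margin rule for tags, Lactation members went from 648 to 828 in library A and from 111 to 69 in library B. Gestation members went from 405 to 436 and from 246 to 234. The mean log2 ratio of the shares was then 0.99. The thinned value of 1.29 rests on 1 random draw; the median of 10 other draws, added after seeing the data, was 1.19. The count of genes called, 1, did not hold: it was 66 with no filter, 15 with the margin rule for tags, and 0 with DESeq2, with a sum of at least 3, with at least 1000 UMIs, with Scrublet calls kept, and without cells of more than 20 milk UMIs (added after seeing the data). With each tag sample left out, and no year block, it ran from 0 to 46, with 46 without Lactation of library A, 15 without Gestation of library B and 0 without either of the others; the lone sample is then assumed to vary like the others. The paired analysis uses the library year as the block; with no replicate block 0 genes were called, and 141 had an unadjusted p under 0.05. The cause of these changes was not tested. Reversed log2 differences were Iglc1 (-0.14 with the margin rule) and Cish (0.16 with it, and 0.014 without the milk cells, from -0.02). With 1 tag sample left out, Iglc1 reached -3.08, Gzma -0.14, Ccl5 -0.18 and -0.10, Mki67 -0.48, Top2a -0.66 and Cish 0.15. Thinning lowered the share with Cd8a to 16.3% and 12.01% and with Trdc to 10.2% and 16.2%. As means over cells, levels were 16.8 and 23.2 for Cd7, 159.9 and 74.2 for Gzma, 152.8 and 95.6 for Ccl5, and 17.5 for Fcer1g in library B. Without the milk-rich cell, Lactation in library B had Cd7 at 28.1, Gzma at 91.9, Ccl5 at 134.5 and Fcer1g at 22.7. Depth limits the reading of undetected Cd8b1, Cd8a and Trdc.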

Other observations

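Some members of the 2 HT2 samples differed from the named samples. In library B, Klra4 and Klra8, receptors of NK cells, were at 3.05 and 4.68 UMIs per 10000 in HT2 members, against 0.0570 to 0.728 and 0.0244 to 0.481 in the named samples. Prf1 was at 4.33 against 0.562 to 1.79. In library A Prf1 was at 3.23 in HT2 and 0.422 to 1.11 in the named samples, and Gzmc, a gene of the rule, at 8.21 against 1.62 to 2.37. These are sums of 36 and 62 cells under a name that the sources dispute, and they were chosen after their values were seen.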
